A study of Mus musculus with 17 samples.

Results

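Wild-type mouse embryos of 2 ages, E9.5 and E8.5 (days of embryonic development), were compared gene by gene, organ by organ. The embryos were chosen by their labels and make up 8 of the 17 libraries of the series, 4 of each age. Every library holds the RNA of 1 whole C57BL/6J embryo. The 4 E9.5 embryos were the wild-type controls of the Disp1 experiment, from Disp1CS/+ mothers and Disp1INDEL/+ fathers. The 4 E8.5 embryos were the Myo10+/+ controls of the Myo10 experiment, with parents of both sexes heterozygous for m1J. No agent is named for either group, litters are not identified per embryo, and the whole embryo mixes every cell type present. Age therefore coincides with the experiment, its cross and its litters, and a difference between the ages cannot be told apart from a difference between the experiments.

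During this day of gestation the mouse embryo turns, and its heart tube loops and starts to form chambers. Primitive red cells born in the yolk sac enter the circulation and fill with haemoglobin, the first neurons leave the cell cycle, and somites, pharyngeal arches and limb buds grow while the primitive streak gives way to a tail bud. Many of these events have well known marker genes, which were grouped into lists of organs, cell types and pathways.

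Levels are given as TPM (a transcript abundance that corrects for transcript length) after structural and small noncoding RNAs, histone genes and mitochondrial genes had been dropped, the rest rescaled to 1000000 and each library divided by a median-of-ratios factor. Values follow embryos 1 to 4 of each age, errors are SD over n = 4 embryos for levels and SE for log2 differences, and differences are E9.5 minus E8.5 on the log2(TPM + 1) scale, which understates the change of genes near or below 1 TPM. A gene is said to rise or fall if limma's adjusted p was below 0.05, and most counts also ask for at least a 2-fold difference. Read depth is unknown, since TPM does not keep it.

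The libraries of the ages differed in composition. The dropped structural RNAs took 0.221% to 0.334% of the deposited TPM in the E9.5 embryos and 31.3% to 38.9% in the E8.5 embryos, and histone genes took 0.499% to 0.527% against 7.92% to 9.002%. Between 13103 and 13408 genes reached 1 TPM at E9.5 and between 12236 and 12957 at E8.5. Among the kept genes, differences also moved with transcript length: the median log2 difference was 0.28 for the 706 genes of up to 1000 bases and -0.82 for the 135 genes above 12000 bases. Both mutated genes were expressed in their wild types, Disp1 at 19.3 ± 1.21 TPM at E9.5 and 15.6 ± 0.126 TPM at E8.5 and Myo10 at 31.8 ± 1.25 and 45.4 ± 6.36 TPM (exact two-sided permutation p = 0.0286 for each, the smallest that 4 against 4 embryos can give), although Myo10 differed by 0.17 on TPM as deposited. Y-linked transcripts (Ddx3y, Eif2s3y, Kdm5d and Uty) were present in E9.5 embryos 1 to 3 and in E8.5 embryo 1, so sex was unevenly spread. None of the 4 was called over all embryos, but without E8.5 embryo 1 all 4 were called higher (limma adjusted p between 0.0166 and 0.0193), Ddx3y by 2.82. Eif2s3y was also called higher without E9.5 embryo 4 (2.81, limma adjusted p = 0.0494). E8.5 embryo 1 was the only one of its age with these transcripts, and E9.5 embryo 4 the only one of its age without them. Leaving out either therefore fixes these calls by sex, and they are no test of age. Markers of neurons (Tubb3), heart (Myl7), somites (Meox1), endothelium (Cdh5), red cells (Hba-x) and endoderm or floor plate (Foxa2) were above 1 TPM in all 8 embryos.

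An embryo of each age stood apart. E9.5 embryo 3 was poor in transcripts of the tail end: the node and tail-bud factor T was at 16.6, 15.5, 1.48 and 18.1 TPM at E9.5, and the caudal Hox gene Hoxc10 at 54.9, 52.98, 0.15 and 56.4 TPM. The same embryo was rich in placental and yolk sac transcripts, with the decidual prolactin Prl8a2 at 21.1, 3.54, 618 and 17.8 TPM and the apolipoprotein Apoa1 at 5.89, 12.7, 276 and 3.43 TPM. E8.5 embryo 1 had less of the streak genes than the other E8.5 embryos (T at 16.5, 106, 101 and 91.5 TPM) and more embryonic globin (Hba-x at 747, 190.1, 121 and 153 TPM). Results that rest on these genes are given with and without both embryos. Both were picked by their values of these genes, so p-values without them are no independent test of these genes.

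Of 13670 genes tested, 36.4% rose and 35.2% fell (71.6% in either direction), and 8.95% rose and 8.62% fell by at least 2-fold (1223 and 1178 genes). The median difference was 0.01, and the groups did not overlap for 66.3% of genes. A lack of overlap therefore does not by itself set apart the single genes below. With so wide a background, a list is read here by its share of 2-fold changes and its median. List counts are given out of all members, some of them not tested, whereas the shares above are out of genes tested. The scaling sets the balance of directions: on TPM as deposited 3571 genes rose and 565 fell at least 2-fold, with the median at 0.62, and without the median-of-ratios factors 940 rose and 1569 fell, with the median at -0.16.

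**Figure D1:**
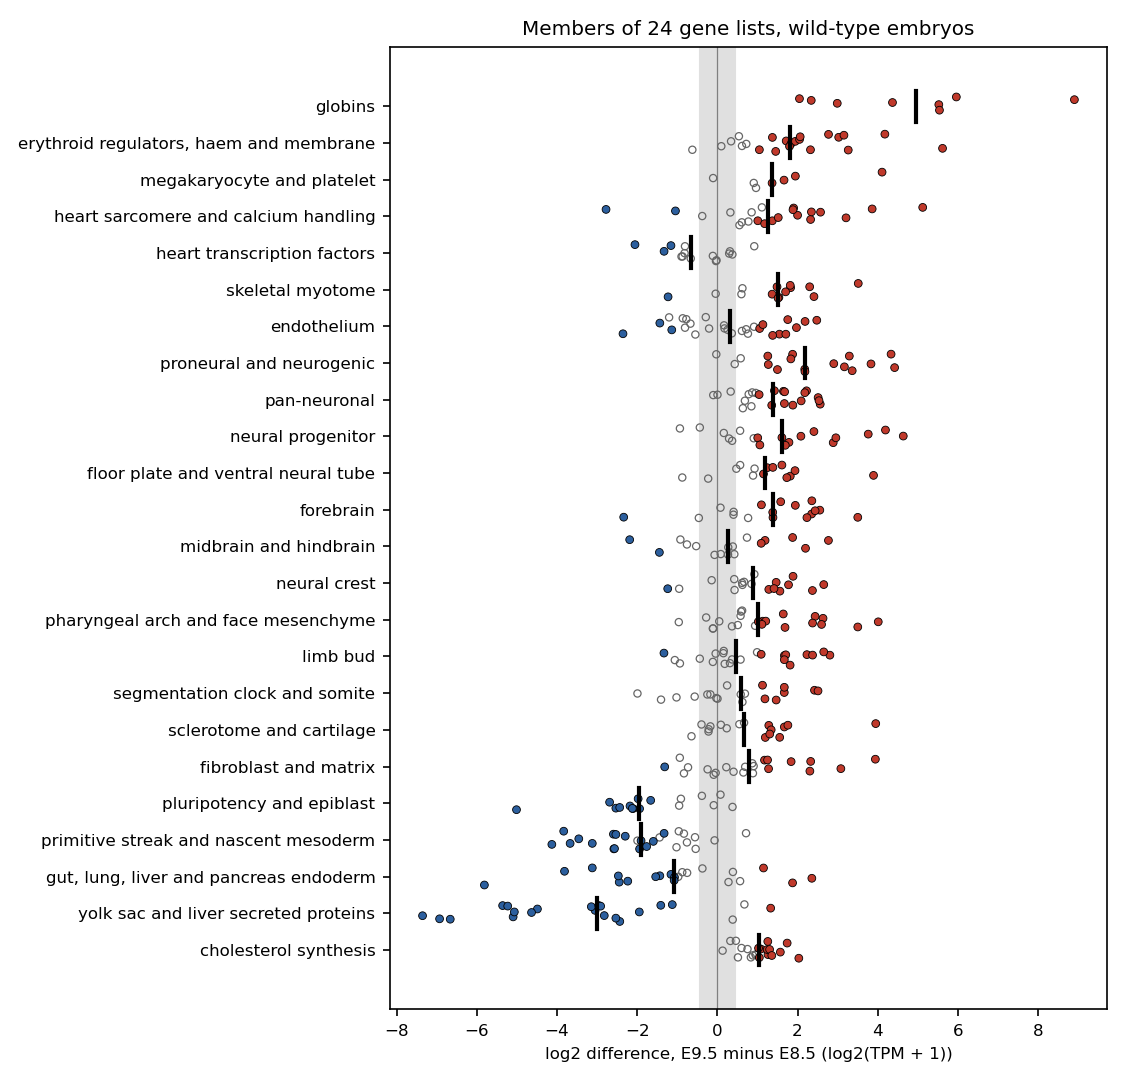
Log2 difference (E9.5 minus E8.5, horizontal axis) of every tested member of 24 gene lists, 1 point per gene, with filled points for members called at least 2-fold and a bar at each list's median. The grey band spans the quartiles of all 13670 genes (-0.43 to 0.43). Globin, proneural and erythroid lists lie to the right, and yolk sac, pluripotency and primitive streak lists to the left.

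The globin list had the highest median of all the lists. Of the 9 globin genes, 8 rose at least 2-fold, none fell and 1 did not pass the filter on low values; the median was 4.95. Hbb-y, the embryonic beta-like chain of primitive red cells, reached 13068, 15599, 18948 and 17744 TPM in the E9.5 embryos against 151, 17.3, 12.9 and 32.2 TPM in the E8.5 embryos, a log2 difference of 8.91 ± 0.63 (limma adjusted p = 2.06e-06). All 4 E9.5 embryos lay far above all 4 E8.5 embryos. Its partner Hba-x, the embryonic alpha-like chain, stood at 9018, 9504, 11275 and 12518 TPM against 747, 190.1, 121 and 153 TPM (5.52 ± 0.48, limma adjusted p = 7e-06). Hbb-bh1, the other embryonic beta-like chain, stood at 9985, 11716, 13594 and 14246 TPM against 1648, 488, 450.2 and 341 TPM (4.37 ± 0.42). For all 3 genes embryo 1 was the highest of the E8.5 embryos, and without both embryos that stand apart the differences were 9.56, 6.06 and 4.81. At E8.5 the order of the means was Hbb-bh1 (732 ± 614 TPM), Hba-x (303 ± 298) and Hbb-y (53.4 ± 65.8), whereas at E9.5 Hbb-y (16339.9 ± 2584 TPM) led Hbb-bh1 (12385 ± 1926) and Hba-x (10579 ± 1616). At E9.5 Hbb-bh1 was above Hba-x in each embryo. The difference of their means was smaller than the SD of Hbb-bh1, a spread between embryos that does not measure the difference within them.

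The alpha chains that persist into adult life, Hba-a1 and Hba-a2, averaged 4464 ± 718 and 4640.0 ± 921 TPM at E9.5 against 122 ± 112 and 96.3 ± 89.9 TPM at E8.5; the genes are near-identical copies, so reads cannot be assigned firmly between them. The adult beta chains Hbb-bs and Hbb-bt, also near-identical, were scattered: Hbb-bs had 357, 91.98, 502 and 198 TPM against 146, 57.3, 46.4 and 11.5 TPM and Hbb-bt 102, 8.96, 52.1 and 81.02 TPM against 24.9, 18.4, 8.39 and 2.24 TPM. Their groups overlapped, and both passed the test (limma adjusted p = 0.0159 and 0.0452). The call of Hbb-bt ended without E9.5 embryo 1, 3 or 4 or E8.5 embryo 3 or 4 (limma adjusted p between 0.0855 and 0.119). The minor alpha-like gene Hbq1b rose by 2.99.

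**Figure D2:**
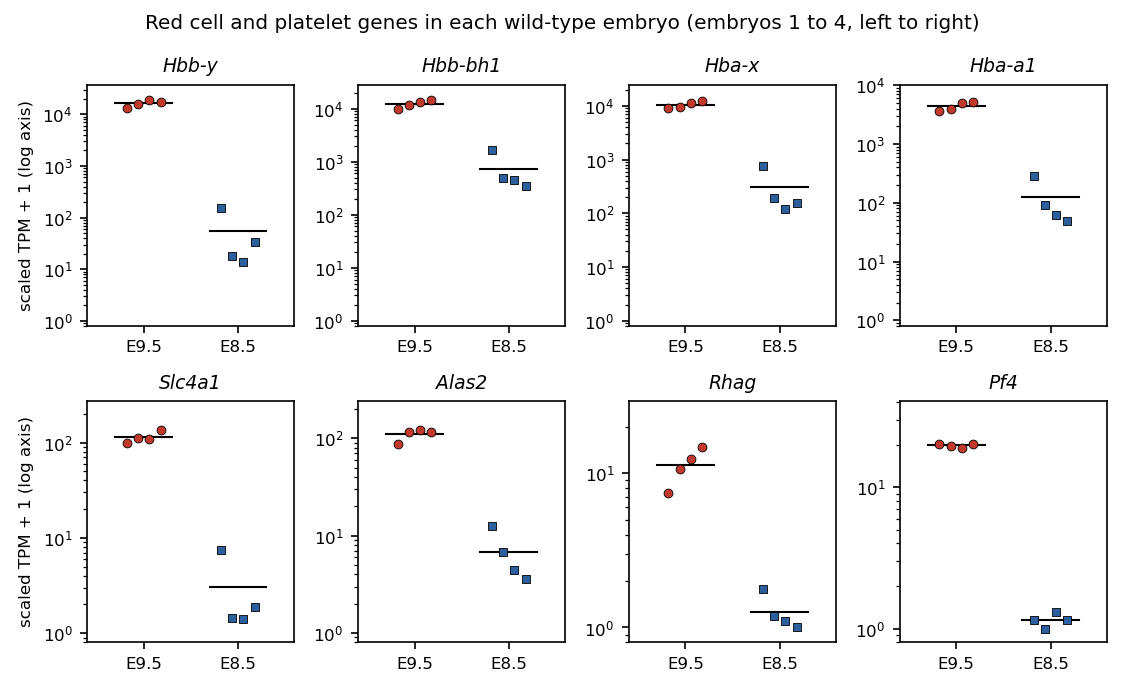
Level of 8 red cell and platelet genes in each embryo (scaled TPM + 1, logarithmic vertical axis), with circles for E9.5, squares for E8.5 and a short bar at each group's mean. Hbb-y spans 12.9 to 151 TPM at E8.5 and 13068 to 18948 TPM at E9.5, and the E8.5 embryo with the highest value is embryo 1 for each red cell gene.

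The machinery of haemoglobin production rose with the globins. Of 23 erythroid regulators, haem enzymes and red cell membrane genes, 16 rose at least 2-fold and none fell that far, with a median of 1.82. The red cell anion exchanger Slc4a1 had 98.7, 110.3, 107 and 135 TPM against 6.44, 0.429, 0.402 and 0.88 TPM (5.62 ± 0.47). Alas2, which commits glycine to haem in red cells, had 86.9, 116, 119.8 and 116 TPM against 11.5, 5.77, 3.41 and 2.62 TPM (4.18 ± 0.33). Both were clear of the E8.5 range in all 4 E9.5 embryos. The nuclear factor Hemgn rose by 3.27 and the Rh-associated glycoprotein Rhag by 3.16, while the regulators themselves moved less, Klf1 by 1.84 and Gata1 by 1.72. The transferrin receptor Tfrc, through which cells take up iron, went the other way (97.8 ± 8.25 against 155 ± 43.7 TPM, -0.62, limma adjusted p = 0.00843), although on TPM as deposited its difference was 0.06. In whole embryos, more red cells and more RNA per red cell cannot be told apart, and the same holds for every cell type below.

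GATA1 is the textbook activator of such genes and binds GATA sites, so the upstream stretches of 3 genes that rose are shown, an alpha-like and a beta-like globin and the haem enzyme. Each is the 250 bases before the RefSeq start site (GRCm38.p6), 5′ to 3′ on the gene's strand, with the match to AGATAA or TGATAA on either strand in capitals.
Hbb-y (chr7:103853208-103853457, minus strand): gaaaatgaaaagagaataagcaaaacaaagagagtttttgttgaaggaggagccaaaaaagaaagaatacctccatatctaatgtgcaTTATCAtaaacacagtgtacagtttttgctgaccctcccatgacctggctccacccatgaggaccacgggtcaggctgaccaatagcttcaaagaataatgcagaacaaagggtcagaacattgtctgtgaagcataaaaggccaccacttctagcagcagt
Hba-x (chr11:32276350-32276599, plus strand): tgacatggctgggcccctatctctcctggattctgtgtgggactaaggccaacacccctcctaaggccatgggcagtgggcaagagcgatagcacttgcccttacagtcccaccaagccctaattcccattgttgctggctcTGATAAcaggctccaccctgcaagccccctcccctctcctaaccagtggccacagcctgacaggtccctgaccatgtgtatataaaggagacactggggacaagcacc
Alas2 (chrX:150547167-150547416, plus strand): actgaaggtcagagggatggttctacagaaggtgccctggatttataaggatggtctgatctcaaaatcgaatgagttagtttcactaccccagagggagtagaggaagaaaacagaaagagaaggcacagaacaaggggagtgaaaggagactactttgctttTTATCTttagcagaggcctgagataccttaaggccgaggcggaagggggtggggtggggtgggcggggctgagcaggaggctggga
The matches begin 162, 108 and 86 bases before the start. Such a match was found for 5 of the 8 globin genes with a promoter in the table (62.5%) and for 9 of 16 erythroid genes (56.2%), against 18.8% of all 27025 genes. A match is a description of the letters and does not show binding.

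Other blood lineages were thinner. Pf4, platelet factor 4, had 19.3, 18.7, 17.9 and 19.2 TPM at E9.5 and 0.147, 0, 0.303 and 0.146 TPM at E8.5 (4.11 ± 0.10, limma adjusted p = 5.72e-09). Of 12 megakaryocyte genes, 7 of them tested, 4 rose at least 2-fold, among them the platelet tubulin Tubb1 (1.95). Of 19 macrophage genes only 10 passed the filter; the adaptors Tyrobp (2.58 ± 1.17 against 0.159 ± 0.129 TPM) and Fcer1g (2.13 ± 0.0802 against 0.244 ± 0.173 TPM) rose, whereas the mannose receptor Mrc1 fell (0.81 ± 0.343 against 4.72 ± 1.97 TPM, -1.62). The stem cell surface protein Cd34, also made by endothelium, rose by 1.98, and the stem cell factor receptor Kit fell by 0.71 on the log2 scale, a call that ended on TPM as deposited (-0.07, limma adjusted p = 0.619).

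The heart genes split by role. Of 23 sarcomere and calcium-handling genes, 13 rose and 2 fell at least 2-fold (median 1.27), whereas of 15 cardiac transcription factors none rose and 3 fell at least 2-fold (median -0.66). On TPM as deposited 18 sarcomere genes rose and 1 fell that far (median 1.94), and 1 factor rose and 1 fell (median -0.02). Nppa, the atrial natriuretic peptide and a marker of chamber muscle, had 68.9, 88.05, 73.9 and 54.98 TPM against 4.05, 0.486, 0.126 and 1.09 TPM (5.12 ± 0.40). The ventricular light chain Myl2 had 125, 119.9, 168 and 130.5 TPM against 20.9, 5.601, 2.35 and 14.6 TPM (3.86 ± 0.50). Tnni3, the cardiac troponin I, rose by 2.57 and Cox6a2, the muscle subunit of cytochrome oxidase, by 3.21. In contrast, genes of the first heart tube were already high: the atrial light chain Myl7 had 792, 761, 878 and 868 TPM against 1025, 563, 362 and 893 TPM (0.32, limma adjusted p = 0.32) and Myh6, the alpha myosin heavy chain, 119, 122, 135 and 124 TPM against 238, 59.8, 22.5 and 134 TPM (0.61, limma adjusted p = 0.367). For both, the E8.5 embryos ranged more widely than the E9.5 embryos, and embryo 1 was above all E9.5 embryos.

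Tbx20, Gata5 and Gata4, which build the heart tube, fell at least 2-fold. Tbx20 had 6.76, 7.28, 5.67 and 6.57 TPM against 36.03, 32.7, 31.2 and 23.1 TPM (-2.06 ± 0.13, limma adjusted p = 1.17e-06), and Gata4 24.7, 21.7, 27.3 and 22.9 TPM against 58.98, 59.2, 61.2 and 42.5 TPM (-1.16 ± 0.12). Nkx2-5 fell by less (-0.90), and Hand1 and Hand2 were not called (0.29 and -0.11). Tbx2 and Tbx5 rose by less than 2-fold. On TPM as deposited the call of Nkx2-5 ended (-0.23, limma adjusted p = 0.301) and Hand1 and Myl7 were called higher (0.96 and 1.01). The giant sarcomere protein Ttn fell from 54.8, 7.23, 4.06 and 16.6 TPM to 1.04, 1.42, 0.949 and 0.917 TPM (-2.78 ± 0.61); its transcript lies far above 12000 bases, a class whose median was itself -0.82, and with differences corrected for length class the value was -2.25. Without both embryos that stand apart, 15 sarcomere genes rose and 1 fell at least 2-fold. Between the mutant embryos 8 rose and 1 fell that far.

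Skeletal muscle genes rose. Myog, the regulator that commits myoblasts, had 10.5, 10.3, 16.1 and 7.27 TPM at E9.5 and was listed at 0.071, 0, 0 and 0 TPM at E8.5 (3.51 ± 0.19, limma adjusted p = 4.76e-07), and Myf5, which acts before it, had 4.02, 5.13, 5.602 and 4.203 TPM against 0.611, 0.454, 0.262 and 1.26 TPM (1.83 ± 0.18). All 4 E9.5 embryos exceeded all E8.5 embryos for both. Of 19 myotome genes, 10 rose and 1 fell at least 2-fold, and 5 did not pass the filter. The embryonic myosin Myh3 rose by 2.303 and alpha-actinin 2 (Actn2), shared with heart, by 2.41. The member that fell was Met (-1.23), the receptor for hepatocyte growth factor. Its fall was below 2-fold with the length correction (-0.88) and on TPM as deposited (-0.59). The muscle intermediate filament desmin (Des) carries the E-box CAGCTG, a site type bound by myogenic and proneural factors, and its promoter is shown as one whose gene lies in the rising list (Des: 50.5 ± 6.89 against 19.9 ± 7.27 TPM, 1.37, but 0.65 with limma adjusted p = 0.133 between the mutant embryos of the same ages).
Des (chr1:75360042-75360291, plus strand): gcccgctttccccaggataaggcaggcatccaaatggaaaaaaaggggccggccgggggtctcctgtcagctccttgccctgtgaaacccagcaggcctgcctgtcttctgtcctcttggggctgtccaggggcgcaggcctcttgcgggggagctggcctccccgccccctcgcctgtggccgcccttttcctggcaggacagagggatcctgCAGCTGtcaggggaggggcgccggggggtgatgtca
The capitals mark CAGCTG, 36 bases before the start. It was found in 5 of 12 myotome promoters (41.7%) and in 14.7% of all genes.

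Endothelial genes changed in both directions. Of 28 members, 9 rose and 3 fell at least 2-fold (median 0.31). On TPM as deposited 13 rose and 1 fell that far (median 0.90). The arterial connexin Gja5 had 13.1, 9.71, 11.4 and 12.2 TPM against 2.198, 0.859, 0.152 and 2.74 TPM (2.48 ± 0.33), the sialomucin Emcn rose by 2.19 and the tight junction protein Cldn5 by 1.97. Etv2, the factor that starts the blood and endothelial programme, had 6.32, 7.02, 5.19 and 6.596 TPM against 18.2, 50.6, 53.8 and 33.9 TPM (-2.36 ± 0.29). The groups overlapped for none of these 4 genes, as for 66.3% of all genes tested.

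In the nervous system, the genes that start neurons rose from near 0. Of 19 proneural and neurogenic genes, 14 rose at least 2-fold and none fell (median 2.18), and of 25 genes shared by most neurons 13 rose and none fell (median 1.39). Neurog1, which starts sensory and spinal neurons, had 26.7, 21.7, 29.2 and 21.9 TPM against 0.629, 0.0623, 0 and 0.187 TPM (4.42 ± 0.17). Nhlh1, switched on in newborn neurons, rose by 3.83, and Neurod1, with 8.24, 8.07, 9.81 and 7.73 TPM against 0, 0.0385, 0.0801 and 0.0769 TPM, by 3.17 ± 0.10. All 3 were at or below 1 TPM in every E8.5 embryo. The Notch ligand Dll1, which also oscillates in presomitic mesoderm, was not called (35.02 ± 3.44 against 39.7 ± 17.5 TPM, -0.03), but without E8.5 embryo 1 it was called lower (-0.46, limma adjusted p = 0.00157), as it was between the mutants (-0.44).

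Differentiation genes followed at higher levels. The neuronal tubulin Tubb3 had 217, 172, 269.6 and 184 TPM against 52.3, 38.2, 31.99 and 56.6 TPM (2.22 ± 0.19), and the RNA-binding protein Elavl3 9.63, 10.4, 10.9 and 7.75 TPM against 0.986, 0.823, 0.666 and 0.701 TPM (2.57 ± 0.12). Elavl4 rose by 2.54 and the stathmin Stmn4 by 2.51. Its relative Stmn2 was not called, with 9.64, 9.17, 15.6 and 10.6 TPM against 9.41, 10.5, 13.3 and 11.1 TPM (0.00 ± 0.16, limma adjusted p = 0.989), and nor was the light neurofilament Nefl (0.33, limma adjusted p = 0.0617), which was called higher without E9.5 embryo 4 or E8.5 embryo 3 (0.44 and 0.39) and between the mutant embryos (0.63). On TPM as deposited both Stmn2 and Nefl were called higher (0.61 and 0.97). The promoter of Elavl3 is shown because it holds CAGCTG close to the start of a gene that defines neurons.
Elavl3 (chr9:22052024-22052273, minus strand): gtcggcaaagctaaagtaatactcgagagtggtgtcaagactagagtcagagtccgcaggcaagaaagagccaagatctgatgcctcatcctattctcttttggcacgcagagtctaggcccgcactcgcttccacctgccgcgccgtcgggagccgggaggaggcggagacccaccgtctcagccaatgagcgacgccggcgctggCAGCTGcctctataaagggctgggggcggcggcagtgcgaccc
The match begins 43 bases before the start. CAGCTG was found in 5 of 14 proneural promoters (35.7%) and 6 of 16 pan-neuronal promoters (37.5%), against the 14.7% of all genes given above.

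**Figure D3:**
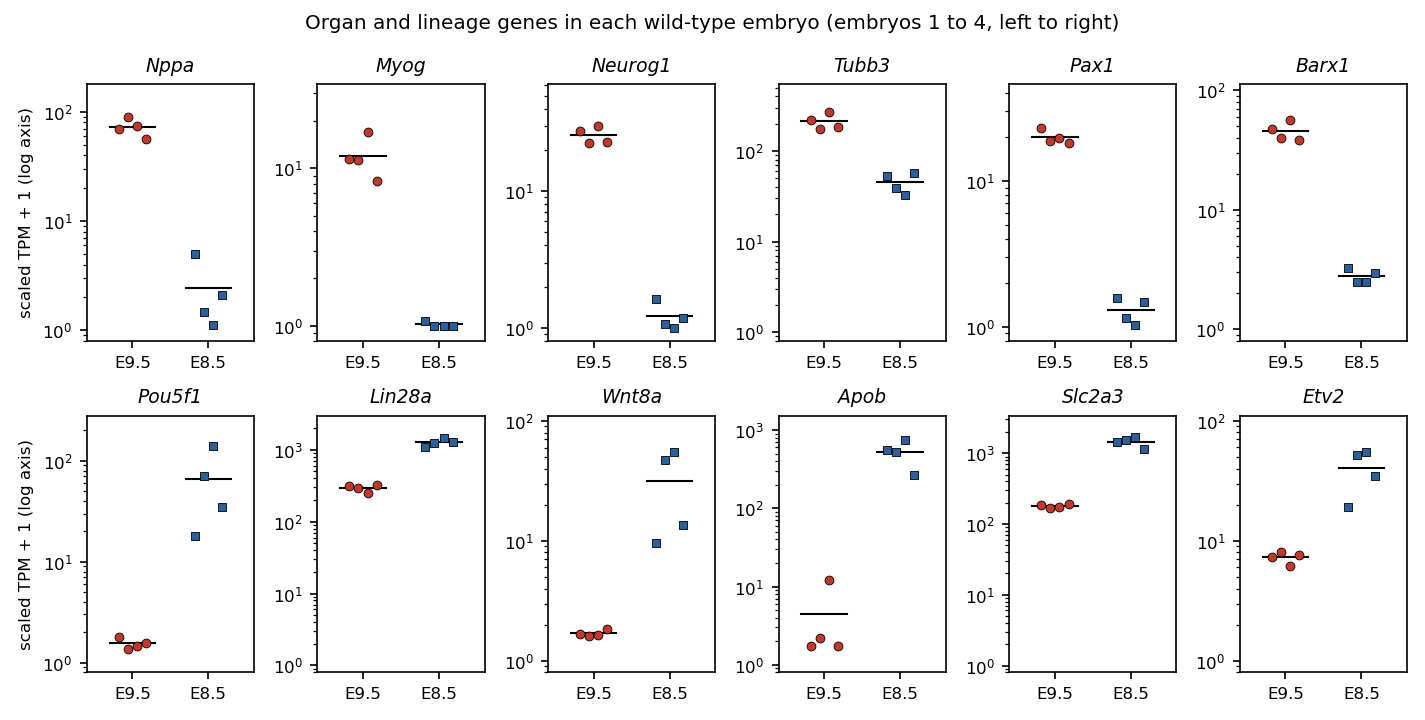
Level of 12 organ and lineage genes in each embryo (scaled TPM + 1, logarithmic vertical axis), with circles for E9.5, squares for E8.5 and short bars at the means. The upper row holds genes that rose (Nppa, Myog, Neurog1, Tubb3, Pax1 and Barx1) and the lower row genes that fell (Pou5f1, Lin28a, Wnt8a, Apob, Slc2a3 and Etv2). No E8.5 embryo overlaps an E9.5 embryo in any of the 12, and the groups did not overlap for 66.3% of all genes tested.

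Progenitor and regional genes also rose. Of 21 neural progenitor genes, 12 rose at least 2-fold and none fell that far (median 1.61). Dbx1, which marks progenitors of the intermediate spinal cord, had 36.3, 33.4, 51.4 and 33.9 TPM against 1.17, 0.352, 0.157 and 0.803 TPM (4.64 ± 0.21), and Zic1, a dorsal neural factor, 43.7, 42.7, 52.4 and 42.8 TPM against 4.16, 0.59, 0.326 and 2.75 TPM (4.19 ± 0.39). Zic1 was uneven at E8.5, higher in embryos 1 and 4. The general neural factor Sox2 was already high and rose by 0.57 (138 ± 10.6 against 93.5 ± 11.3 TPM), and Zic2 fell by less than 2-fold (-0.44, but 0.23 on TPM as deposited and -0.05, not called, between the mutants).

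Along the ventral neural tube, 8 of 14 genes rose at least 2-fold. Shh, the ligand of the floor plate and notochord, had 27.2, 26.8, 27.1 and 24.3 TPM against 8.13, 14.1, 12.01 and 11.7 TPM (1.15 ± 0.14; exact two-sided permutation p = 0.0286). The motor neuron progenitor factor Olig2 had 22.7, 23.98, 23.9 and 20.04 TPM against 0.839, 0.249, 0.0864 and 1.54 TPM (3.896 ± 0.24), and Nkx2-2 rose by 1.82. Foxa2, active in floor plate, node and endoderm, fell by less than 2-fold (-0.88). The Hedgehog target Ptch1 was lower (41.5 ± 2.71 against 76.4 ± 4.75 TPM, -0.87), as were Foxf1 (-1.53) and the endodermal ligand Ihh (-2.45); of 14 genes of this pathway 3 rose and 2 fell at least 2-fold. On TPM as deposited the calls of Foxa2 and Ptch1 ended (-0.22 and -0.19, limma adjusted p = 0.124 and 0.102). After the length correction Ptch1 was at -0.33.

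In the forebrain list 11 of 19 genes rose and 1 fell at least 2-fold. Dlx2, of telencephalic interneuron progenitors and of the arches, had 24.2, 20.999, 22.99 and 21.3 TPM against 1.78, 0.515, 0.957 and 1.18 TPM (3.503 ± 0.16) and Nkx2-1 rose by 2.36. Hesx1, a gene of the early anterior neural plate, had 1.58, 1.93, 2.29 and 3.18 TPM against 18.03, 11.3, 16.3 and 15.7 TPM (-2.34 ± 0.17), and Otx2 was not called (23.9 ± 2.18 against 23.8 ± 10.02 TPM), although it was called higher without E8.5 embryo 1 (0.32, limma adjusted p = 0.0197), without both embryos that stand apart (0.28) and on TPM as deposited (0.72). The midbrain and hindbrain list was more even, with 5 of 18 rising and 2 falling at least 2-fold. Egr2, which marks alternate segments of the hindbrain, fell from 15.02, 5.501, 4.57 and 8.83 TPM to 0.986, 0.854, 0.843 and 0.949 TPM (-2.19 ± 0.28), and the guidance receptor Epha4 by 1.45 on the log2 scale, whereas En2 rose by 2.199.

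Genes of the neural crest and of the mesenchyme it forms rose more often than they fell. Of 19 crest genes, 8 rose and 1 fell at least 2-fold. Tfap2b rose by 2.65 and Sox8 by 2.37, while Sox10, the migrating crest factor, had 24.2, 20.1, 25.1 and 22.96 TPM against 21.2, 2.203, 1.07 and 11.04 TPM (1.89, limma adjusted p = 0.0246); E8.5 embryo 1 overlapped the E9.5 range, and the call of Sox10 ended without E9.5 embryo 1 or E8.5 embryo 2 or 3 (limma adjusted p between 0.0522 and 0.0694). Foxd3, an early crest gene, fell by less than 2-fold (-0.95), a call that ended on TPM as deposited (-0.33, limma adjusted p = 0.298). On that scale 14 crest genes rose at least 2-fold. In pharyngeal arch and face mesenchyme 12 of 24 genes rose and none fell at least 2-fold. Barx1, a gene of the proximal arches, had 46.1, 39.2, 54.96 and 37.7 TPM against 2.28, 1.501, 1.48 and 1.95 TPM (4.01 ± 0.14, limma adjusted p = 5.31e-08).

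Among derivatives of the somites, 8 of 22 sclerotome and cartilage genes, 17 of them tested, rose at least 2-fold and none fell that far. Pax1, which marks sclerotome and pharyngeal pouches, had 21.9, 17.8, 18.8 and 17.1 TPM against 0.567, 0.14, 0.0243 and 0.467 TPM (3.95 ± 0.15). In the segmentation list 7 of 20 rose and none fell at least 2-fold: the somite genes Meox2 (2.51) and Uncx (2.42) were higher, but Msgn1 of the presomitic mesoderm, with 19.7, 16.4, 0.117 and 20.6 TPM against 6.75, 64.2, 74.5 and 56.3 TPM, did not pass (limma adjusted p = 0.111). Msgn1 was called lower without E8.5 embryo 1 (-2.76, limma adjusted p = 0.0258) and without both embryos that stand apart (-1.73, limma adjusted p = 9.53e-06), and 2 genes of the list fell at least 2-fold. Msgn1 was itself lowest of its age in each of these embryos, so the p-values without them are no independent test of it.

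Of 24 fibroblast and matrix genes, 8 rose and 1 fell at least 2-fold (median 0.78), against 4 and 1 between the mutant embryos and 13 and 0 on TPM as deposited. Col3a1 and Col1a1, the fibrillar collagens, had 193, 192, 196 and 172 and 361, 325, 177 and 205 TPM at E9.5 and 19.6, 9.18, 5.57 and 15.7 and 48.1, 32.5, 25.003 and 18.8 TPM at E8.5, differences of 3.94 ± 0.30 and 3.08 ± 0.30. The matricellular protein Postn rose by 2.33 (1.15 between the mutants, limma adjusted p = 0.0542) and the proteoglycan Lum by 2.31. Other matrix genes were lower: Fn1 (-0.94) and the long transcript of versican, Vcan (-1.31). After the length correction they were at -0.40 and -0.78. On TPM as deposited the call of Fn1 ended (-0.25, limma adjusted p = 0.101).

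Limb bud genes included 9 that rose and 1 that fell at least 2-fold, of 24. Alx4 rose by 2.38 and Lhx2 by 2.23, while Sp8, also a gene of the tail bud and neural ridge, fell by 1.33 on the log2 scale. Without both embryos that stand apart, 12 rose and 1 fell at least 2-fold. Of 21 intermediate mesoderm and kidney genes, 6 rose and 1 fell at least 2-fold. Wt1, which marks mesothelium and the gonadal ridge, had 4.44, 3.93, 4.37 and 4.54 TPM against 1.01, 0.526, 0.67 and 0.305 TPM (1.72 ± 0.13), and Sall4, shared with pluripotent cells, fell by 1.98.

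The Hox genes, whose order along each cluster mirrors their order along the body, rose more often than they fell. Of 39 Hox genes, 33 were tested. At least 2-fold rises numbered 5 of 11 in cluster A, 2 of 10 in B, 4 of 9 in C and 2 of 9 in D. The genes tested numbered 11, 9, 6 and 7. Hoxd1, the 3′-most gene of its cluster and active early, fell, with 10.6, 10.1, 4.19 and 10.6 TPM against 16.1, 37.3, 36.3 and 47.6 TPM (-1.81 ± 0.35). The groups did not overlap, as for 66.3% of all genes tested. Its relative Hoxb1 was not called (32.6 ± 6.31 against 26.8 ± 4.69 TPM, 0.27) over all embryos. Hoxb1 was called higher without E9.5 embryo 3 (0.42, limma adjusted p = 0.0184), without both embryos that stand apart (0.29) and on TPM as deposited (0.92).

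Several middle members rose. Hoxa4 had 18.1, 17.2, 24.3 and 18.8 TPM against 0.999, 2.899, 2.33 and 3.69 TPM (2.62 ± 0.24), and Hoxb8 33.8, 35.8, 36.4 and 31.7 TPM against 3.46, 8.93, 8.33 and 6.09 TPM (2.26 ± 0.22). Hoxb5 rose by 2.204, Hoxc5 by 2.11 and Hoxc6 by 1.93, with no overlap, as for 66.3% of all genes tested. Their neighbours Hoxb2 (0.06), Hoxb6 (0.30) and Hoxc8 (-0.31) were not called, although on TPM as deposited Hoxb2 and Hoxb6 were called higher (0.72 and 0.94). On that scale 8, 6, 5 and 6 genes of clusters A to D rose at least 2-fold. Without E8.5 embryo 1 Hoxc8 was called lower (-0.59, limma adjusted p = 0.0428).

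The 5′ members depended on the embryos that stand apart. Hoxc10 had 54.9, 52.98, 0.15 and 56.4 TPM against 0.222, 2.26, 1.37 and 0.88 TPM (3.36 ± 1.15, limma adjusted p = 0.0244). Hoxd13 had 9.56, 10.3, 0.404 and 9.32 TPM against 0.256, 1.78, 1.28 and 0.423 TPM (1.81 ± 0.63, limma adjusted p = 0.0265). E9.5 embryo 3 lay within or below the E8.5 range for both. The call of Hoxc10 ended without E9.5 embryo 1, 2 or 4 or E8.5 embryo 1 (limma adjusted p between 0.0527 and 0.0691), and that of Hoxd13 also without E8.5 embryo 4 (between 0.0599 and 0.0745). Without both embryos that stand apart the differences were 4.51 and 2.36 (limma adjusted p = 1.03e-06 and 4.29e-05). E9.5 embryo 3 was set apart by low tail-end transcripts, Hoxc10 among them, so these p-values are no independent test of either gene. Hoxd10 held its place in all 4 E9.5 embryos (14.3, 15.4, 5.99 and 13.4 TPM against 0.175, 2.14, 1.32 and 0.231 TPM, 2.81 ± 0.37). Hoxc11, Hoxd11 and Hoxd12 did not pass the filter, with E9.5 embryo 3 below 1 TPM. Hoxd11, for example, had 7.19, 6.94, 0.085 and 5.95 TPM against 0.0504, 0.199, 0.182 and 0.0997 TPM. Without both embryos, where Hoxd11 and Hoxd12 also passed the filter, 4 of 9 tested genes of cluster D rose at least 2-fold.

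**Figure D4:**
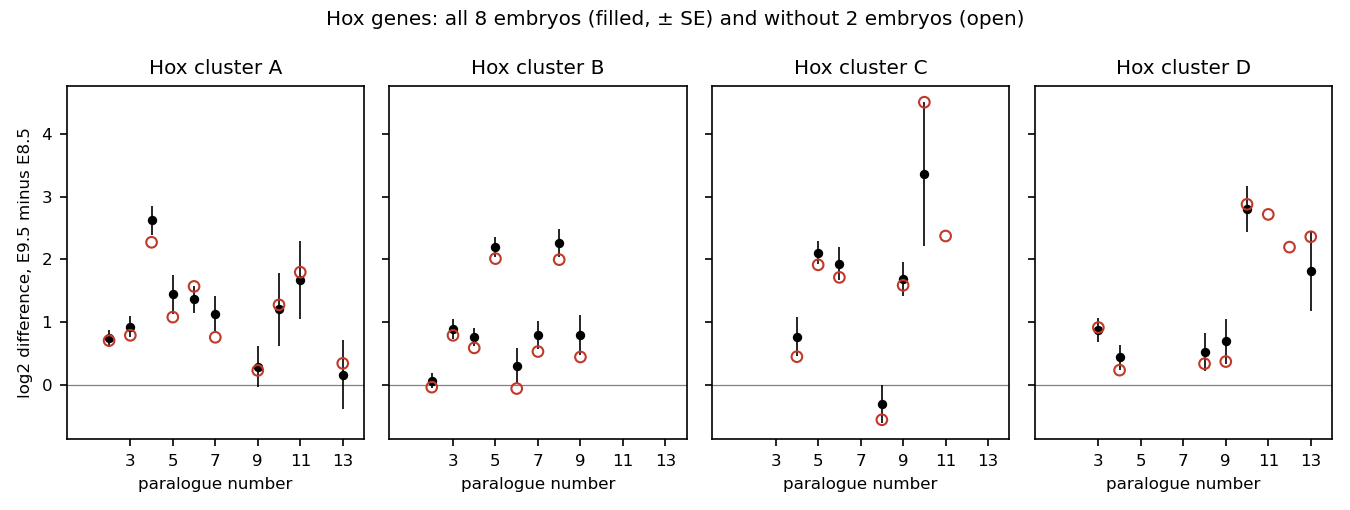
Log2 difference (E9.5 minus E8.5, vertical axis) of tested Hox genes from paralogue number 2 on against that number (horizontal axis), 1 panel per cluster, with filled circles for all 8 embryos and open circles without E9.5 embryo 3 and E8.5 embryo 1; the vertical lines are SE of the 8-embryo values, and genes with an open circle alone (Hoxc11, Hoxd11 and Hoxd12) passed the filter only without both embryos. The open circles lie above the filled ones for Hoxc10 (4.51 against 3.36) and Hoxd13 (2.36 against 1.81).

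Genes of pluripotency and gastrulation fell. Of 21 pluripotency and epiblast genes none rose at least 2-fold and 10 fell that far (median -1.96), and of 29 primitive streak and nascent mesoderm genes none rose at least 2-fold and 15 fell that far (median -1.904). Pou5f1, the core pluripotency factor that persists in primordial germ cells, had 0.81, 0.378, 0.446 and 0.574 TPM against 17.2, 69.5, 138 and 33.5 TPM (-5.01 ± 0.52). Lin28a, which blocks the maturation of a microRNA family, fell from 1074, 1254, 1467 and 1276 TPM to 307, 292, 245 and 318 TPM (-2.12 ± 0.11), and Trim71, a ubiquitin ligase of early embryos, from 274, 259, 281 and 282 TPM to 39.8, 45.8, 38.3 and 43.03 TPM (-2.69 ± 0.063, limma adjusted p = 5.72e-09). Pou5f1 varied widely among the E8.5 embryos, whereas Trim71 hardly varied within either age. The epiblast methyltransferase Dnmt3b fell by 2.18 and its relative Dnmt3a rose by 0.38.

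In the streak list, Wnt8a had 0.667, 0.608, 0.656 and 0.845 TPM against 8.57, 46.3, 53.9 and 12.6 TPM (-3.83 ± 0.51), and Lefty2, a Nodal inhibitor of lateral plate mesoderm, 0.167, 0.108, 0 and 0.247 TPM against 10.3, 45.9, 11.5 and 21.9 TPM (-4.13 ± 0.39). Nodal itself, with 0.487, 0.405, 0.82 and 0.572 TPM against 0.304, 21.96, 15.6 and 0.701 TPM, did not pass the filter, being above 1 TPM in E8.5 embryos 2 and 3 alone. The caudal factor Cdx1 had 10.03, 9.34, 5.65 and 10.2 TPM against 26.4, 189, 286 and 149.9 TPM (-3.67 ± 0.62), and T had 16.6, 15.5, 1.48 and 18.1 TPM against 16.5, 106, 101 and 91.5 TPM (-2.58 ± 0.76, limma adjusted p = 0.0123). For T, E8.5 embryo 1 lay inside the E9.5 range and E9.5 embryo 3 below it, and without both the difference was -2.504 (limma adjusted p = 4.3e-07). Both embryos were set apart by T among other genes, so that p-value is no independent test of T. The Wnt3 ligand was the member that rose, by less than 2-fold (0.71). Germ cell genes were mostly below the filter: of 14, 8 were not tested, and those that fell at least 2-fold were Pou5f1 and Prdm1 (-1.06). Prdm1 fell by less than 2-fold without both embryos that stand apart (-0.96), with the length correction (-0.89), between the mutants (-0.94) and on TPM as deposited (-0.44).

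The lowest median of all the lists was that of proteins secreted or taken up by the visceral endoderm of the yolk sac, most of them also made by the later liver. Of 22 genes, 19 fell and 1 rose at least 2-fold (median -3.004). Apob, the scaffold of lipoproteins, had 0.758, 1.23, 11.1 and 0.721 TPM against 556, 526, 756 and 264 TPM (-7.36 ± 0.60). Apoc2, which activates lipoprotein lipase, had 0.806, 3.57, 55.7 and 0.34 TPM against 747, 823, 823 and 273 TPM (-6.93 ± 1.03), and the uptake receptor Cubn 0.527, 0.626, 10.9 and 0.315 TPM against 303, 263, 370.3 and 138 TPM (-6.67 ± 0.65). In each, E9.5 embryo 3 was the highest of its age and E8.5 embryo 4 the lowest of its age. Without both embryos that stand apart the differences were -7.96, -7.99 and -7.32. Apob and Cubn have long transcripts, and after the length correction they were at -6.82 and -6.13. How much yolk sac stayed with each embryo at dissection is not recorded, and its part in these differences was not tested.

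Afp, the fetal albumin relative, had 24.04, 32.6, 236 and 25.8 TPM against 382, 280.5, 294 and 143 TPM (-2.44 ± 0.67, limma adjusted p = 0.00832), with the difference at -3.02 without both embryos. Alb, a product of liver cells, was the member that rose, from 0.0453, 0.135, 0.0466 and 0 TPM to 1.27, 1.66, 2.38 and 1.42 TPM (1.33 ± 0.14), still low in every E9.5 embryo. HNF1 factors are textbook regulators of such genes, and the promoters of Apoc2 and Afp are shown because both fell and both hold GTTAAT, a short core of the HNF1 site.
Apoc2 (chr7:19677942-19678191, minus strand): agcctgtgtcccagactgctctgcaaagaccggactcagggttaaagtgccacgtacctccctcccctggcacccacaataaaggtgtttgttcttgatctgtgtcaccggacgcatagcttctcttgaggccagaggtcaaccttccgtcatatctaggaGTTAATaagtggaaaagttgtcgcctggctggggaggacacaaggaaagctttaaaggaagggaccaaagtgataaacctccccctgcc
Afp (chr5:90490464-90490713, plus strand): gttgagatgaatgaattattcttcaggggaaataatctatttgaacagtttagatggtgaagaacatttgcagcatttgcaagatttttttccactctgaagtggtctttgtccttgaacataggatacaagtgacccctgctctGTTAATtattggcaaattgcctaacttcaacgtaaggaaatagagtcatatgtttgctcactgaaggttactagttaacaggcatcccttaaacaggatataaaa
The matches, in capitals, begin 89 and 105 bases before the start. GTTAAT or its reverse complement was found in 6 of 20 promoters of the list (30%), Alb among them, against 7.49% of all genes.

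Endoderm genes fell more often than they rose. Of 23 gut, lung, liver and pancreas genes, 11 fell and 3 rose at least 2-fold (median -1.07), and on TPM as deposited 6 fell that far. The largest falls were in the trypsin inhibitor Spink1 (3.896, 3.88, 37.2 and 4.42 TPM against 465, 606, 659 and 264 TPM, -5.81 ± 0.63), Hnf4a (-3.81) and Cdx2 (-3.12), of which the first pair is also made in the yolk sac. Spink1 followed the yolk sac list in being highest of its age in E9.5 embryo 3. Surface ectoderm and periderm genes formed a separate list, to which Krt8, Krt18, Cdh1 and Trp63 belong. Of its 21 genes, 1 rose and 5 fell at least 2-fold (median -0.45), against 4 and 0 on TPM as deposited (median 0.17). The simple epithelial keratins Krt8 and Krt18 fell from 702, 919, 952 and 707 and 613, 776, 785 and 595 TPM to 301, 287, 241 and 261 and 226, 226, 225 and 218 TPM (-1.58 ± 0.12 and -1.61 ± 0.10), and Cdh1, the epithelial cadherin, by 1.38. Trp63, the factor of stratified epithelium, rose by 1.75 (5.101 ± 0.589 against 0.834 ± 0.353 TPM).

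Extra-embryonic and maternal markers were checked as signs of attached tissue. The summed level of the yolk sac list was 248 to 1592 TPM at E9.5 and 2298 to 5592 TPM at E8.5. The decidua list summed to 290.0 to 906 TPM at E9.5 and 279.5 to 301 TPM at E8.5. It also holds genes of the embryo's own lists, such as Hand2 and Bmp2, so its sum does not measure decidua alone. The trophoblast list summed to 25.6 to 408 TPM at E9.5 and 33.4 to 66.9 TPM at E8.5, with 14 of its 22 members not passing the filter. Prl8a2 had 21.1, 3.54, 618 and 17.8 TPM against 2.37, 4.59, 0.931 and 0 TPM, far higher in E9.5 embryo 3 than in any other (3.74, limma adjusted p = 0.0245). Without both embryos that stand apart the difference was 2.48 (limma adjusted p = 0.0159), and between the mutant embryos of the same ages it was -0.56, not called. The call also ended without E8.5 embryo 3 or 4 (limma adjusted p = 0.0505 and 0.0637). The placental lactogen Prl3d1 had 5.83, 0.485, 127 and 3.05 TPM against 0.485, 0.96, 1.498 and 0.48 TPM and was not called, except without E9.5 embryo 2 (3.08, limma adjusted p = 0.0271). Of 11 allantois and extra-embryonic mesoderm genes none rose and 4 fell at least 2-fold (median -0.57), led by the long transcript Ahnak, which fell from 200.4, 154, 147 and 88.3 TPM to 13.99, 13.9, 10.5 and 10.03 TPM (-3.46 ± 0.22, and -2.92 after the length correction).

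**Figure D5:**
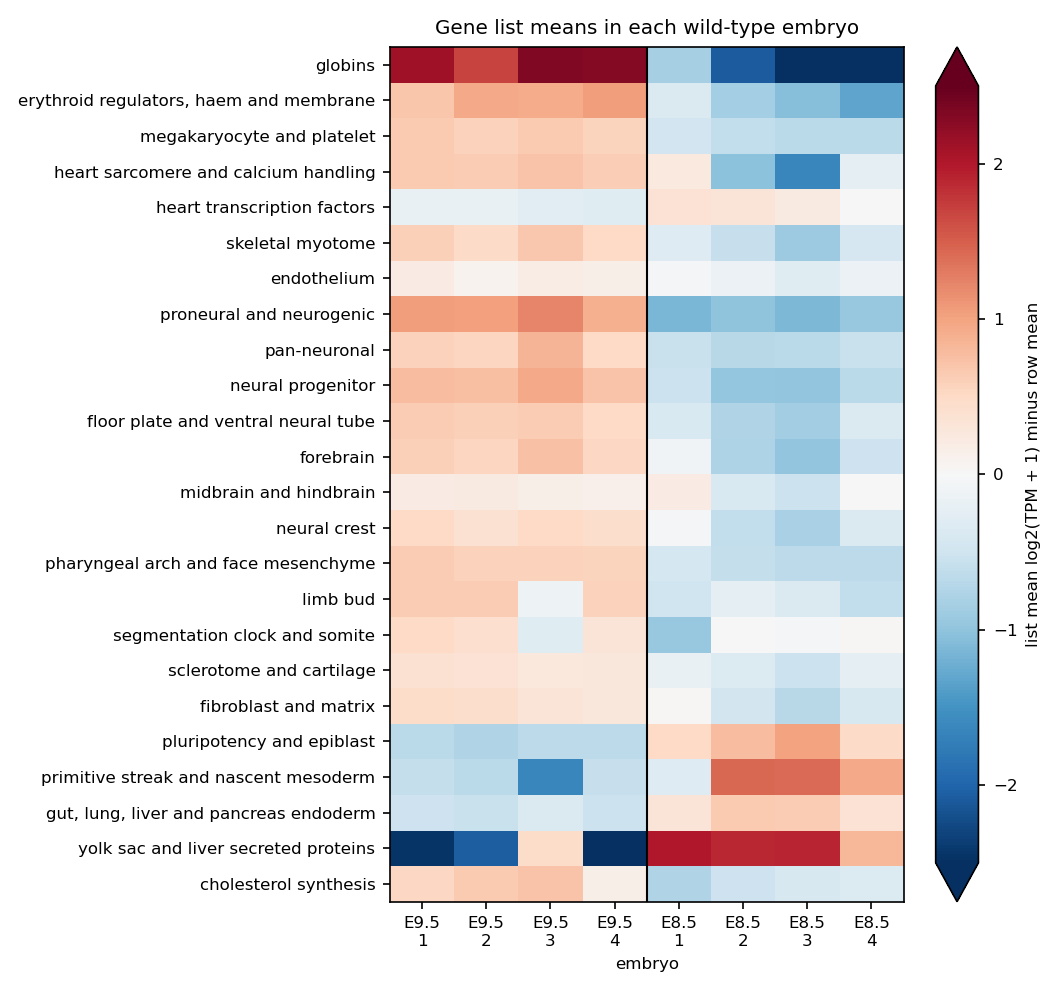
Mean log2(TPM + 1) of 24 gene lists (rows) in each of the 8 embryos (columns), shown as the difference from the row's mean over the 8 embryos, on a colour scale from blue (lower) to red (higher) whose ends also hold values beyond them. E9.5 embryo 3 is low in the primitive streak and segmentation lists and high in the yolk sac list compared with the other E9.5 embryos, and E8.5 embryo 1 is low in the streak and segmentation lists and high in the globin and heart sarcomere lists compared with the other E8.5 embryos.

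Signalling lists were described by their ligands, inhibitors and targets. Of 14 FGF ligands and feedback targets none rose and 4 fell at least 2-fold (median -0.74), led by the ligands Fgf4 (-1.94) and Fgf3 (-1.904). Of 17 Wnt genes 2 rose and 5 fell at least 2-fold, with secreted inhibitors going opposite ways: Sfrp2 had 188, 167, 186 and 182 TPM against 45.8, 37.3, 37.2 and 54.2 TPM (2.04 ± 0.11) and Sfrp5 13.4, 10.8, 14.8 and 12.5 TPM against 66.7, 64.9, 58.997 and 62.04 TPM (-2.21 ± 0.089). On TPM as deposited no FGF gene rose and 2 fell at least 2-fold (median -0.08). On that scale 4 Wnt genes rose and 3 fell that far (median 0.06). Among Notch genes, the effector Hes5 had 100.5, 85.5, 114 and 101 TPM against 13.9, 8.55, 7.94 and 25.7 TPM (2.89 ± 0.30) and Heyl rose by 3.08, while the ligand Jag1 fell by 1.32 and Hes1 by less than 2-fold (-0.38, but 0.29 on TPM as deposited). Of the enzymes that destroy retinoic acid 1 rose and 2 fell. Cyp26b1 had 21.1, 19.3, 23.1 and 20.7 TPM against 2.74, 0.765, 0.939 and 1.84 TPM (3.17 ± 0.21), and Cyp26a1 16.9, 18.2, 8.95 and 16.2 TPM against 31.1, 53.2, 44.6 and 61.1 TPM (-1.598 ± 0.24), while Cyp26c1 had 26.9, 20.5, 20.3 and 20.05 TPM against 87.6, 37.5, 27.8 and 58.8 TPM (-1.11 ± 0.30). The call of Cyp26c1 ended on TPM as deposited (-0.44, limma adjusted p = 0.218). Its fall was below 2-fold without both embryos that stand apart (-0.795) and between the mutants (-0.86). Aldh1a3, which makes retinoic acid, rose by 2.83, and Aldh1a2, its main early source, was not called over all embryos (-0.57) but was called lower without E8.5 embryo 1 (-0.99, limma adjusted p = 0.00021) and without both embryos that stand apart (-0.91).

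Metabolic genes changed in specific steps. The glucose transporter Slc2a3 fell from 1428, 1515, 1679.9 and 1147 TPM to 187, 170.1, 174 and 191 TPM (-2.98 ± 0.11, limma adjusted p = 6.82e-08) and Slc2a1 from 1239.8, 1243, 1416 and 1188 TPM to 605, 518, 546 and 608 TPM (-1.16 ± 0.081). Of the hexokinases, Hk2 fell by 1.200 and Hk1 rose by 1.401, whereas most of the glycolysis list lay near 0 on the log2 scale (median -0.10 over 21 genes), with Pkm at -0.07 and Ldha at -0.03, neither called, though both were called higher on TPM as deposited and lower between the mutants (-0.24 and -0.38). Of 21 cholesterol synthesis genes, 11 rose at least 2-fold, none fell and all had a positive difference (median 1.03). That count was 2 between the mutant embryos (median 0.60), 8 without both embryos that stand apart and 19 on TPM as deposited. Dhcr7, the last enzyme of the pathway, had 52.9, 52.96, 58.6 and 37.5 TPM against 10.3, 10.8, 12.2 and 12.6 TPM (2.03 ± 0.13). No nuclear gene of oxidative phosphorylation changed 2-fold (0 of 23, median 0.26), nor any of 20 DNA replication genes (median 0.07). On TPM as deposited 11 and 2 of them rose at least 2-fold (medians 0.94 and 0.75). Of 19 mitotic genes, those that fell 2-fold were Cenpf (-1.299) and Cenpe (-1.11), against 8.62% of all genes tested. They were at -0.77 and -0.76 after the length correction, and on TPM as deposited 4 mitotic genes rose and none fell 2-fold.

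Imprinted growth genes changed in both directions, 5 of 20 rising and 5 falling at least 2-fold. On TPM as deposited 8 rose and 3 fell that far, and with the length correction 5 rose and 3 fell. Dlk1 had 271, 237, 225 and 210.0 TPM against 75.7, 66.1, 54.2 and 34.2 TPM (2.07 ± 0.21), and Igf2, the fetal growth factor, 1264, 1193, 1047 and 1143 TPM against 576, 452, 375 and 359 TPM (1.42 ± 0.14). Phlda2, which restrains placental growth, had 24.5, 18.7, 35.9 and 29.9 TPM against 155, 428, 504 and 207 TPM (-3.395 ± 0.36). The Igf2 receptor Igf2r fell by 1.37, but by less than 2-fold after the length correction (-0.84) and on TPM as deposited (-0.69). H19 was not called (3922 ± 364 against 4358 ± 641 TPM).

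Some of the most significant genes stood out for other reasons. Eno1b had 4413, 3636, 4175 and 4586 TPM against 3.505, 5.65, 2.095 and 5.54 TPM, while its near-identical parent Eno1 had 1191, 966, 1108 and 1186 TPM against 1809, 1858, 2181 and 2159 TPM, so reads cannot be assigned firmly between them. Their sum was 4602 to 5772 TPM against 1812 to 2183 TPM. The nuclear noncoding RNA Malat1, chosen after its values were seen, had 5.32, 9.74, 6.0996 and 6.02 TPM against 644, 441, 489 and 409 TPM, and Taf1d, which hosts small nucleolar RNAs, 11.4, 19.5, 13.6 and 13.02 TPM against 262, 286, 361 and 369 TPM. Both were high in the E8.5 libraries, which also held more structural RNA, and the part of library composition in these differences was not tested. The peptide hormone Sst rose from 0.147, 0, 0 and 0.146 TPM to 20.4, 16.4, 21.3 and 14.8 TPM (4.15 ± 0.13), and the cell surface protein Igdcc3 from 84.7, 69.9, 69.1 and 68.8 TPM to 556, 509.6, 550.3 and 499.7 TPM (2.84 ± 0.076).

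The mutant embryos of both experiments gave a second set of libraries of these ages, 4 Disp1CS/INDEL at E9.5 and 5 Myo10m1J/m1J at E8.5, with the same experiments behind each age. Of the 1223 genes that rose at least 2-fold between wild types, 1050 (85.85%) did so between the mutants, and of the 1178 that fell, 1008 (85.57%) did. The sign was shared by 1197 of the 1201 and 1161 of the 1162 that could be tested there. Globins were among those shared, with Hbb-y at 7.68 and Hba-x at 5.26, as were Neurog1 (4.41), Apob (-7.87) and Trim71 (-2.75). The adult beta globins were not called there (Hbb-bs at 1.25, limma adjusted p = 0.314). In a test of the difference between the stage differences, 3 of 14204 genes passed: Myo10, which is the mutated gene of the E8.5 mutants, Ifi204 and Srp9. The 2 sets of embryos share their experiments, so this does not separate age from experiment.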

How the data were processed

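RNA of single frozen embryos was purified on micro columns, made into TruSeq libraries and sequenced on a NovaSeq, per the labels' protocols. The deposited table holds TPM for 41709 gene symbols, computed by the authors against GRCm39 (mm39), per the submitters' processing notes; each column sums to 1000000. No source used here names the aligner or the quantifier, and as depth cannot be had from TPM, no counting interval is given.

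From these, 4377 structural or small noncoding RNA genes (biotypes from RefSeq, then GENCODE), 104 histone genes and 37 mitochondrial genes were dropped, the other 37191 rescaled to 1000000, and each library divided by its median-of-ratios factor. Genes at 1 TPM or more in at least 4 of the 8 libraries were tested with limma 3.58.1 (R 4.3.3) with a variance trend on log2(TPM + 1), with Benjamini-Hochberg adjustment at 0.05; in fits that leave out 1 embryo or both embryos the minimum was 3 libraries. The fit was first tested on simulated data. Levels of Disp1, Myo10 and Shh were compared by exact permutation. Replicates are separate embryos whose litters are unknown, so p-values measure only the spread between these embryos.

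The comparison and the 60 gene lists were chosen with earlier results of these data known. Genes are named if they are among the 15 largest differences each way (protein-coding, no overlap, at least 5 TPM), the 4 largest called members each way or the 2 highest uncalled members of a list, the 10 smallest p each way, or a Hox, globin, sex-linked or mutated gene or Shh. Klf1, Gata1, Des, Dnmt3b, Nodal, Afp, Malat1, Meox1, Cdh5, Ifi204 and Srp9 were chosen after their values were seen. Some genes that the rule names are not reported here. Promoters are RefSeq GRCm38.p6, matched by symbol. Alternatives changed the filter, pseudocount, scaling, dropped genes, variance trend, libraries, covariates and left-out embryos. Leaving out both embryos that stand apart and a correction over 20 classes of transcript length were chosen after seeing the data.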

Additional observations from a re-analysis of the deposited data

Results flagged for a closer look

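An embryo is listed here if its gap to the nearest other embryo of its age, as a share of the group's range, exceeded Dixon's 95% critical value. Chance alone gives this in about 1 in 20 groups, and 61 of 432 groups of embryos met it. The ratios of gap to range follow in parentheses.

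E9.5 embryo 3 was the lowest in the primitive streak (0.918) and limb bud (0.906) list means and in T (0.929), Hoxc10 (0.984), Hoxd13 (0.956), Hoxd11 (0.919), Hoxd10 (0.854), Hoxd1 (0.938), Hoxb1 (0.973), Msgn1 (0.927), Cdx1 (0.845), Cdx2 (0.976), Evx1 (0.855) and Cyp26a1 (0.836). It was the highest in the yolk sac list mean (0.839) and in Apob (0.866), Cubn (0.904), Afp (0.869), Spink1 (0.949), Hnf4a (0.96), Zic1 (0.881), Sox2 (0.942) and Six6 (0.92).

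E8.5 embryo 1 was the lowest in the segmentation list mean (0.951) and in T (0.921), Msgn1 (0.879), Dll1 (0.857), Cdx2 (0.875), Evx1 (0.933) and Hoxb2 (0.855). It was the highest in Myog (1), Prdm1 (0.889) and Igdcc3 (0.919), and, among the Y-linked genes, in Ddx3y (0.983), Eif2s3y (0.928), Kdm5d (0.97) and Uty (0.988). Myog was listed at 0 in the other E8.5 embryos.

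E8.5 embryo 4 was the lowest in the yolk sac list mean (0.912) and in Apoa1 (0.878), Apoc2 (0.913), Hnf4a (0.922), Gata4 (0.898), Hand1 (0.886) and Fn1 (0.891), and the highest in Nhlh1 (1) and Foxe3 (1), both listed at 0 in the other E8.5 embryos. E9.5 embryo 4 was the lowest in the Y-linked genes Ddx3y (0.92), Eif2s3y (0.895), Kdm5d (0.839) and Uty (0.846), and in Shh (0.85), Col3a1 (0.845) and Krt18 (0.853). E9.5 embryo 1 was the highest in the pharyngeal arch list mean (0.909), Zic2 (0.852), Cyp26c1 (0.918) and Cdkn1a (0.86) and the lowest in Alas2 (0.895), and E9.5 embryo 2 was the highest in Cenpf (0.929), H19 (0.925) and Abcc9 (0.835).

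The stage difference of Myo10 (E9.5 minus E8.5) was higher in the mutant than in the wild-type embryos by 2.54 on the log2 scale (limma adjusted p = 1.65e-07), and Myo10 is the gene mutated in the E8.5 mutants. Ifi204 (1.43, limma adjusted p = 2.17e-05) and Srp9 (-1.07, limma adjusted p = 3.13e-05) also differed, and 493 of the 14204 genes had an unadjusted p under 0.05.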

How the results depend on the processing

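Stage and experiment coincide in these embryos and cannot be told apart, litters are unknown, and TPM does not keep the depth. The scaling moved the counts most. On TPM as deposited, with no gene dropped and no factor, 9304 genes were higher and 1364 lower at E9.5 (87.2% of calls higher, against 50.8% as reported), 3571 and 565 at least 2-fold, and 370 members of the gene lists rose and 59 fell 2-fold. Of named genes called in either setting, the sign turned there for Myo10 (0.173), Tfrc (0.0563), Hand2 (0.555), Zic2 (0.228), Hes1 (0.292), Pkm (0.613), Ldha (0.654) and H19 (0.542). With median-of-ratios factors on the same values the 2-fold counts were 1089 and 1227, and without factors on the rescaled values 3627 genes were higher and 6136 lower (37.2% higher). With a mean of at least 5 TPM as the filter, 811 genes rose 2-fold among fewer genes tested. Between mutant embryos it turned for Myo10 (2.04) and Prl8a2 (-0.557). Apart from the construction of these settings, the cause was not tested.

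Leaving out each embryo gave 4702 to 5069 genes higher and 4576 to 4986 lower, 1155 to 1291 and 1160 to 1258 at least 2-fold, and 224 to 257 and 105 to 120 list members. Without both embryos that stand apart 1274 genes rose and 1154 fell at least 2-fold, and with the length correction 1184 and 1014, both chosen after seeing the data. Of the named genes' values over all alternatives, 4052 of 4146 kept their side of the threshold, 45 lost the call and 39 gained it. A further 10 changed sign while called in either setting. Many of these genes were named for their difference or p in the same data, so keeping the call is no independent check of them. Among the 4052, genes called in neither setting could change sign, as Aldh1a2 did on TPM as deposited (0.113, against -0.566). Among other calls that ended were those of Hbb-bs in 1 fit of all 17 libraries (2.34, limma adjusted p = 0.056), Hoxc10 with a pseudocount of 0.1 (3.80, limma adjusted p = 0.0628), Myo10 with the length correction (-0.147) and Sox10 and Prl8a2 with the Y-linked covariate (1.43 and 3.53, limma adjusted p = 0.0621 and 0.0539). The call of Hbb-bt also ended with the replicate block (limma adjusted p = 0.0507). Replicate numbers do not pair the embryos (correlations of deviations -0.0552, 0.0256, 0.0271 and 0.24), and with a replicate block 4924 genes were higher and 4763 lower, 1222 and 1178 at least 2-fold.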

Other observations

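Of 12 epicardium and endocardial cushion genes, 5 rose and 1 fell at least 2-fold. The mesothelial plaque protein Upk3b rose by 1.63 and Twist1, a mesenchyme factor, by 1.196, whereas the hyaluronan synthase Has2 fell from 82.9, 88.6, 66.8 and 81.9 TPM to 25.2, 27.1, 23.5 and 28.6 TPM (-1.58 ± 0.094). In the eye list 4 of 20 genes rose and 1 fell at least 2-fold, and 9 were not tested: the optic vesicle factor Six6 had 4.92, 4.82, 6.23 and 4.83 TPM against 0.476, 0.0524, 0.0273 and 0.34 TPM (2.35 ± 0.14), and the lens factor Foxe3 rose by 2.02.

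Of 14 pharyngeal endoderm, thyroid and thymus genes 3 rose at least 2-fold and none fell that far. Foxe1, a thyroid bud factor, had 6.02, 3.99, 6.03 and 5.06 TPM against 0.719, 0.0749, 0 and 0.749 TPM (2.21 ± 0.21). Of 20 ear, olfactory and cranial placode genes 6 rose and 2 fell at least 2-fold, with Dlx5 rising by 1.64 and the early otic and arch gene Foxi3 falling by 1.403. Of 13 smooth muscle and pericyte genes, 11 of them tested, 1 rose and 2 fell at least 2-fold (median 0.39). Over all genes tested 8.95% rose and 8.62% fell that far. The potassium channel subunit Abcc9 of pericytes rose by 1.57, and the actin-binding contractile gene Tagln by less than 2-fold (0.98). Rgs5 fell from 27.2, 41.3, 38.8 and 21.2 TPM to 8.27, 4.97, 6.91 and 8.27 TPM (-2.01 ± 0.22) and the smooth muscle coactivator Myocd, also active in heart, by 1.66. In the spinal interneuron list, Evx1, shared with the primitive streak, had 7.67, 6.42, 0.523 and 8.71 TPM against 11.9, 46.5, 42.8 and 42.5 TPM (-2.57 ± 0.62, and -2.39 without both embryos that stand apart), while Pou4f1 of sensory neurons rose by 1.37. The stress chaperone Hspb1 rose by 1.704, and of 16 cell cycle exit and p53 target genes only Btg2 (1.34) and Cdkn1a (1.11) rose at least 2-fold and none fell that far, against 8 rising on TPM as deposited.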
